A study of Homo sapiens with 6 samples.

Results

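The 10 genes described here encode 7 matrix metalloproteinases (MMP1, MMP7, MMP10, MMP14, MMP15, MMP24 and MMP28) and 3 tissue inhibitors of metalloproteinases (TIMP1, TIMP2 and TIMP3). They were taken by name from the 19775 genes that have a probe set of their own on the array, and every single-gene probe set of each was read, 24 in all out of 41091. The 10 names were proposed with the outcome of the comparison below in view. Their values in that comparison are therefore given as a description, without p-values, and are not evidence about the family. RNA came from SW480 cells, a line established from a human colon carcinoma. One group of 3 arrays carried RNA from cells given a short hairpin RNA (shRNA) against gankyrin for 4 days, and the other group of 3 carried RNA from cells given a non-targeting shRNA for 4 days. Gankyrin, encoded by PSMD10, is a chaperone that helps assemble the regulatory particle of the proteasome. The labels describe 1 cell line and do not name the hairpin sequence or say whether replicates were separate cultures, so the error behind each p-value is the variation among 6 arrays and may be purely technical.

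Matrix metalloproteinases are zinc-dependent endopeptidases that cut collagens, laminins, fibronectin, cell surface receptors and each other's propeptides. Most are made as inactive precursors and are secreted; MMP14, MMP15 and MMP24 are instead anchored in the plasma membrane, which places proteolysis at the cell edge. TIMPs bind the active site of the enzymes and block them, and TIMP2 also takes part, together with MMP14, in activating pro-MMP2 at the cell surface. In the colon, MMP7 is made by tumour epithelium and is a known target of beta-catenin, while several other family members come largely from stromal cells.

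MMP7, MMP10 and MMP1 are neighbours in a cluster of MMP genes on chromosome 11. The RefSeq order of the protein-coding genes there is MMP7, MMP20, MMP27, MMP8, MMP10, MMP1, MMP3, MMP12 and MMP13. RefSeq promoter windows of 300 bases (250 before and 50 after the annotated start, build GRCh38.p14) were matched for 7 of the 10 genes, the others being MMP1, MMP28 and TIMP2. The windows of 3 genes whose signal was lower in knockdown cells are printed 5′ to 3′ on the gene's strand, 2 from the cluster and 1 of an inhibitor, with the matches of the searched motifs in capitals.
MMP10: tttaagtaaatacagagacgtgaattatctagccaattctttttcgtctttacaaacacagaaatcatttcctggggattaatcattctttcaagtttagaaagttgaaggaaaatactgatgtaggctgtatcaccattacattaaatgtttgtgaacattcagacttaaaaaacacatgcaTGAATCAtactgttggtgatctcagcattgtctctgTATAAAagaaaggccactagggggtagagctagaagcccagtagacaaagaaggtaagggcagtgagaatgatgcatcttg
MMP7: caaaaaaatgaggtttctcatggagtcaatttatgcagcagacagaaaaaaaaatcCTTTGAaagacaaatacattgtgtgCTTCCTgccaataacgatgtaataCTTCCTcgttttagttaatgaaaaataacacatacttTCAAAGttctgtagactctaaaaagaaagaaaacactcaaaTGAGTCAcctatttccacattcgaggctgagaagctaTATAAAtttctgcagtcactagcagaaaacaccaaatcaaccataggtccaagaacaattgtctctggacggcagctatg
TIMP1: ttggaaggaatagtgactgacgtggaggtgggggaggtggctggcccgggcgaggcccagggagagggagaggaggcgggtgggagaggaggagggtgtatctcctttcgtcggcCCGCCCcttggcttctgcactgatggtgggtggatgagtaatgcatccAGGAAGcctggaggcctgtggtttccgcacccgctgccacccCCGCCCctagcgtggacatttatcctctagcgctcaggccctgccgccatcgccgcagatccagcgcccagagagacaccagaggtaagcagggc
These windows lie at chr11:102780579-102780878 (minus strand, MMP10), chr11:102530698-102530997 (minus strand, MMP7) and chrX:47582186-47582485 (plus strand, TIMP1).

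Motifs were searched on both strands. The AP-1 motif, bound by FOS and JUN proteins, was read as TGAGTCA and, with any middle base, as TGANTCA, which contains the stricter form. The MMP7 and MMP10 windows each held 1 match of the looser form with its first base at -67 from the start, and only that of MMP7 also had the strict form. Of the 35116 windows in the table, 7.71% held the looser and 4.95% the strict form. The TATA box was read as TATAAA. It stood at -30 in the MMP7 window and at -31 in the MMP10 window, and 11.5% of all windows held one. For the PEA3/ETS motif the letters AGGAAG were used. MMP7 held 2 matches and TIMP1 held 1, at -87, while 33.6% of all windows held at least 1. For TCF/LEF, the partners of beta-catenin, the letters CTTTGA were used. MMP7 held 2 matches, against 12.9% of all windows with at least 1, and neither MMP10 nor TIMP1 held any. The GC box, read as GGGCGG, occurred 2 times in TIMP1 and in 45% of all windows. The windows of MMP15, TIMP3, MMP24 and MMP14 held 5, 5, 3 and 1 GC boxes and no AP-1 or TATA match. Apart from the nested AP-1 pair, no matches overlapped. These matches describe letters in the windows and say nothing about binding in SW480 cells.

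The knockdown was visible on every array. PSMD10 averaged 6.45 ± 0.14 in knockdown and 10.19 ± 0.04 in control arrays on its brighter probe set (log2 signal, SD, n = 3 each). The log2 difference was -3.74 ± 0.08 (SE; limma adjusted p = 6.81e-09). One sentence of the series text names NFIL3 in place of gankyrin. NFIL3, a bZIP transcription factor, averaged 9.07 ± 0.05 in knockdown and 9.33 ± 0.13 in control arrays. It passed as lower (-0.26 ± 0.07 SE, limma adjusted p = 0.0281), a call lost with no intensity trend and without any single knockdown array or control replicate 2. Array medians lay between 4.20 and 4.25. One array stood apart in its control probe sets, which compare the 3′ and the 5′ part of a transcript. For ACTB, the 3′ minus 5′ log2 difference was 0.43, 0.50 and 0.53 in knockdown replicates 1 to 3, against 0.51, 0.52 and 1.82 in control replicates 1 to 3. For GAPDH it was -0.10, -0.11 and -0.07 in knockdown arrays, against -0.02, 0 and 0.56 in control arrays. Control replicate 3 thus had a weaker 5′ signal than the other 5 arrays, a measure commonly read as a sign of RNA integrity. Results are given with and without that array. Apart from that array, the GAPDH value was still lower on every knockdown array than on every control array. The 3 probe sets for 18S ribosomal RNA read higher on knockdown arrays, by 0.79 to 1.29 on the log2 scale. The part of these measures in the results was not tested.

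The labelled cell type was checked against its markers. All 12 colon epithelial marker genes lay past the filter on dim probe sets, with EPCAM at 12.20 ± 0.08 in knockdown and 12.20 ± 0.03 in control arrays. The intestinal transcription factor CDX2 was dim, at 4.12 ± 0.32 in knockdown and 4.19 ± 0.07 in control arrays. Of the 12 genes 5 passed as lower and 1, VIL1, as higher, against 14.3% and 8.13% of all genes. The log2 of their summed signal was 14.39 to 14.43 in knockdown and 14.49 to 14.52 in control arrays. The fibroblast list had 5 of 10 genes below the filter (COL1A2, COL3A1, LUM, PDGFRA and POSTN) and 1, FAP, passing as higher. Its log2 sum was 8.17 to 8.20 in knockdown and 7.80 to 8.10 in control arrays. The leukocyte list, in which PTPRC was among 3 of 9 genes below the filter, summed to 7.48 to 7.57 in knockdown and 7.28 to 7.43 in control arrays. The endothelial list, with 4 of 8 genes below the filter, summed to 7.12 to 7.24 in knockdown and 7.16 to 7.20 in control arrays. The part of these shifts in the results was not tested.

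Seen as a set, 6 of the 10 genes passed as lower in knockdown cells (MMP10, MMP1, MMP7, MMP15, TIMP1 and TIMP2), 0 passed as higher and 4 did not pass. A gene passed when limma's adjusted p, over all 14199 genes tested and with each gene read on its brightest probe set, was under 0.05. In that test 14.3% of all genes passed as lower and 8.13% as higher, 22.5% in all. Without control replicate 3 the same count was 6 lower and 0 higher, against 16.6% and 12.7% of all genes. The values of the groups did not overlap, with knockdown lower, for 7 of the 10 genes, against 24.6% of all genes; for 0 they were separated with knockdown higher, against 15.7%. The median log2 difference of the 10 was -0.40, that of the 7 MMP genes -0.49 and that of the 3 TIMP genes -0.31, where all genes had -0.02. Because the names were chosen on this comparison, these counts carry no weight as a test. In a culture of cells, fewer cells expressing a gene and less RNA per cell cannot be told apart.

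**Figure D1:**
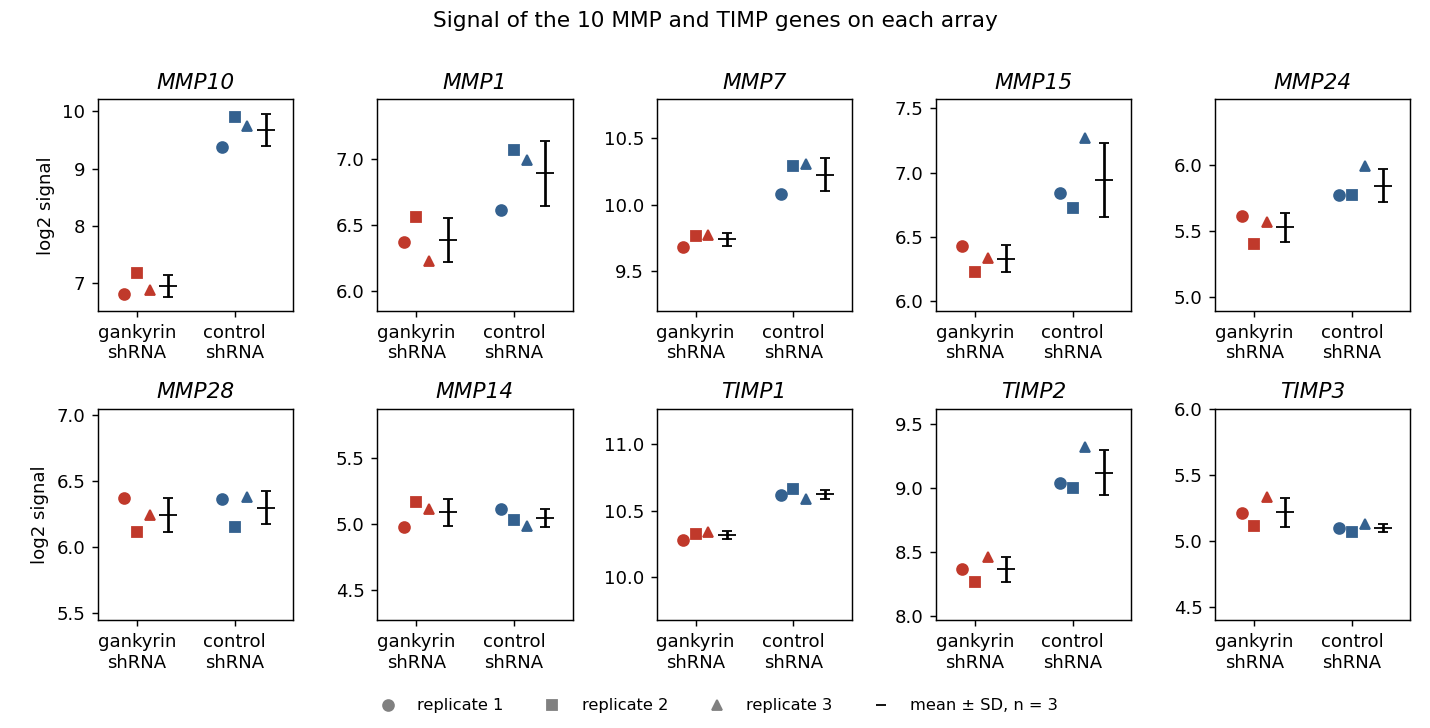
Log2 signal of each gene's brightest probe set (vertical axes, which differ in position and range between panels) on the 3 gankyrin shRNA arrays (red, left) and the 3 control shRNA arrays (blue, right). Symbols are replicates and black bars are mean ± SD (n = 3). MMP10 is separated by 2.20 log2 units between its nearest knockdown and control values, MMP1 by 0.05, and MMP28, MMP14 and TIMP3 overlap.

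The largest difference belonged to MMP10. MMP10 encodes stromelysin-2, a secreted enzyme that cuts proteoglycans, laminin and fibronectin and can activate other proMMPs. Its single probe set (205680_at) read 6.81, 7.17 and 6.88 on knockdown arrays 1 to 3, against 9.37, 9.91 and 9.75 on control arrays 1 to 3 (log2 signal). Every knockdown array was low and every control array high, with a gap of 2.20 between the nearest values. The log2 difference was -2.72 ± 0.14 (SE of the fit), a 6.60-fold lower signal, and it ranked 3 from the lowest of the 14199 genes. Without control replicate 3 it was -2.69 ± 0.12, a 6.44-fold lower signal.

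MMP1, interstitial collagenase, cleaves fibrillar collagen. It read 6.37, 6.56 and 6.23 on knockdown arrays, against 6.61, 7.07 and 6.99 on control arrays. The groups did not overlap, but the highest knockdown and lowest control values were only 0.05 apart. The log2 difference was -0.50 ± 0.13 (SE), 1.42-fold lower, and -0.45 ± 0.12 without control replicate 3. MMP1 no longer passed without knockdown replicate 1 or 3 or without control replicate 2, and it did not pass in the fit over all 32759 probe sets, in which both the variance estimate and the adjustment differ.

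MMP7, matrilysin, is a short family member that lacks the hemopexin domain. It read 9.68, 9.76 and 9.77 on knockdown arrays, against 10.08, 10.29 and 10.31 on control arrays. The knockdown values were close together and 0.31 below the nearest control value. The log2 difference was -0.49 ± 0.07 (SE), 1.40-fold lower, and -0.45 ± 0.06 without control replicate 3. Control replicate 1 was the lowest control array for MMP10, MMP1 and MMP7 alike. The other 6 genes of the chromosome 11 cluster (MMP20, MMP27, MMP8, MMP3, MMP12 and MMP13) had no probe set past the filter, whose limit was 3.60.

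Among the membrane-anchored enzymes, MMP15 differed on 1 of its 2 probe sets. MMP15 encodes MT2-MMP, a transmembrane relative of MMP14. Its brighter probe set (203365_s_at) read 6.43, 6.22 and 6.33 on knockdown arrays, against 6.84, 6.72 and 7.27 on control arrays. Control replicate 3 was the highest of the 6 arrays. The log2 difference of -0.62 ± 0.14 (SE) was -0.45 ± 0.09 without it. The second probe set (243883_at) read 5.56, 5.36 and 5.59 on knockdown arrays, against 5.70, 5.42 and 5.35 on control arrays. Its groups overlapped and its log2 difference was 0.01 ± 0.12 (SE). The MMP15 call depended on the probe set and was also lost without knockdown replicate 2.

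MMP14 encodes MT1-MMP, the main membrane collagenase. Its brightest probe set (160020_at) read 4.98, 5.17 and 5.12 on knockdown arrays, against 5.12, 5.03 and 4.99 on control arrays. The groups overlapped, with a log2 difference of 0.04 ± 0.10 (SE). The 3 other MMP14 probe sets had log2 differences of 0.13, 0.18 and 0.24, none of which passed. The last of these (217279_x_at, whose name marks probes that other transcripts can share) read 4.26, 4.13 and 4.20 on knockdown arrays, against 4.00, 3.82 and 4.06 on control arrays. Those values lie near the low end of the scale: 95% of 40 probe sets for genes restricted to other tissues averaged below 4.28.

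MMP24, the membrane enzyme MT5-MMP, read 5.61, 5.40 and 5.57 on knockdown arrays, against 5.77, 5.77 and 5.99 on control arrays on its brighter probe set (213171_s_at). The groups did not overlap, yet the log2 difference of -0.32 ± 0.10 (SE) did not pass. It passed under a stricter filter (60% of probe sets dropped as dim) and when no intensity trend was fitted. The second MMP24 probe set (208387_s_at) had a log2 difference of -0.03 ± 0.20 (SE) with all 6 arrays. Without control replicate 3, which read 4.17 on it, the 2 MMP24 probe sets were at -0.24 each, and neither passed.

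MMP28, epilysin, is a secreted enzyme of epithelia. Of its 5 probe sets 3 were below the filter, with means over the 6 arrays of 2.03, 2.15 and 3.05. The brightest (224207_x_at) read 6.37, 6.11 and 6.24 on knockdown arrays, against 6.36, 6.15 and 6.38 on control arrays. The arrays of the groups were interleaved, with a log2 difference of -0.06 ± 0.10 (SE). The other probe set past the filter (222937_s_at) was at 0.22 ± 0.11 (SE), its knockdown values all above its control values, and it did not pass.

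Of the inhibitors, TIMP1 and TIMP2 passed as lower and TIMP3 did not pass. TIMP1, which inhibits most soluble MMPs and is secreted by many tumour cells, read 10.28, 10.32 and 10.34 on knockdown arrays, against 10.62, 10.66 and 10.59 on control arrays. This was a small and tightly replicated difference: the SD was 0.03 in knockdown and 0.04 in control arrays, and the nearest values were 0.25 apart. The log2 difference was -0.31 ± 0.05 (SE), 1.24-fold lower, and -0.33 ± 0.04 without control replicate 3.

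TIMP2, the inhibitor that also bridges MMP14 and pro-MMP2, had a lower knockdown mean on each of its 3 probe sets. The brightest (231579_s_at) read 8.37, 8.27 and 8.46 on knockdown arrays, against 9.04, 9 and 9.32 on control arrays. The second (224560_at) read 7.73, 7.81 and 7.82 on knockdown arrays, against 8.37, 8.39 and 9.04 on control arrays. The groups were separate on both, and control replicate 3 was the highest array on each. The log2 differences were -0.75 and -0.81 with all 6 arrays, and -0.65 ± 0.06 and -0.59 ± 0.06 (SE) without that array. The third probe set (203167_at) read 6.07, 5.99 and 6.12 on knockdown arrays, against 6.31, 6.36 and 6.23 on control arrays. Its difference of -0.24 ± 0.09 (SE) was smaller than on the other pair and did not pass with all 6 arrays; without control replicate 3 it was -0.28 ± 0.09 and passed.

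TIMP3, the matrix-bound inhibitor that also blocks ADAM17, had 3 of 4 probe sets below the filter, with means of 2.25, 2.57 and 3.29. The remaining one (201148_s_at) read 5.21, 5.11 and 5.33 on knockdown arrays, against 5.10, 5.07 and 5.13 on control arrays. The groups overlapped and the log2 difference was 0.12 ± 0.10 (SE), which did not pass.

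Across all 24 probe sets, 18 passed the filter and 6 of these passed as lower and 0 as higher in a fit over all 32759 probe sets, where 6.54% passed as lower and 4.05% as higher, 10.6% in all. The groups were separated with knockdown lower on 9 of the 18 and with knockdown higher on 2, against 20% and 15.5% of all probe sets. With control replicate 3 left out, the count of calls was 8 lower and 0 higher, against 12% and 9.73% of all probe sets. The additional probe sets without that array were those of MMP1 and the third of TIMP2. Where a gene had several probe sets past the filter, they did not give the same value. With all 6 arrays the 2 of MMP15 differed in call, the 3 of TIMP2 in size and call, and the 4 of MMP14 ranged from 0.04 to 0.24. The 2 of MMP28 differed in sign, at -0.06 and 0.22, and the 2 of MMP24 were at -0.32 and -0.03.

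**Figure D2:**
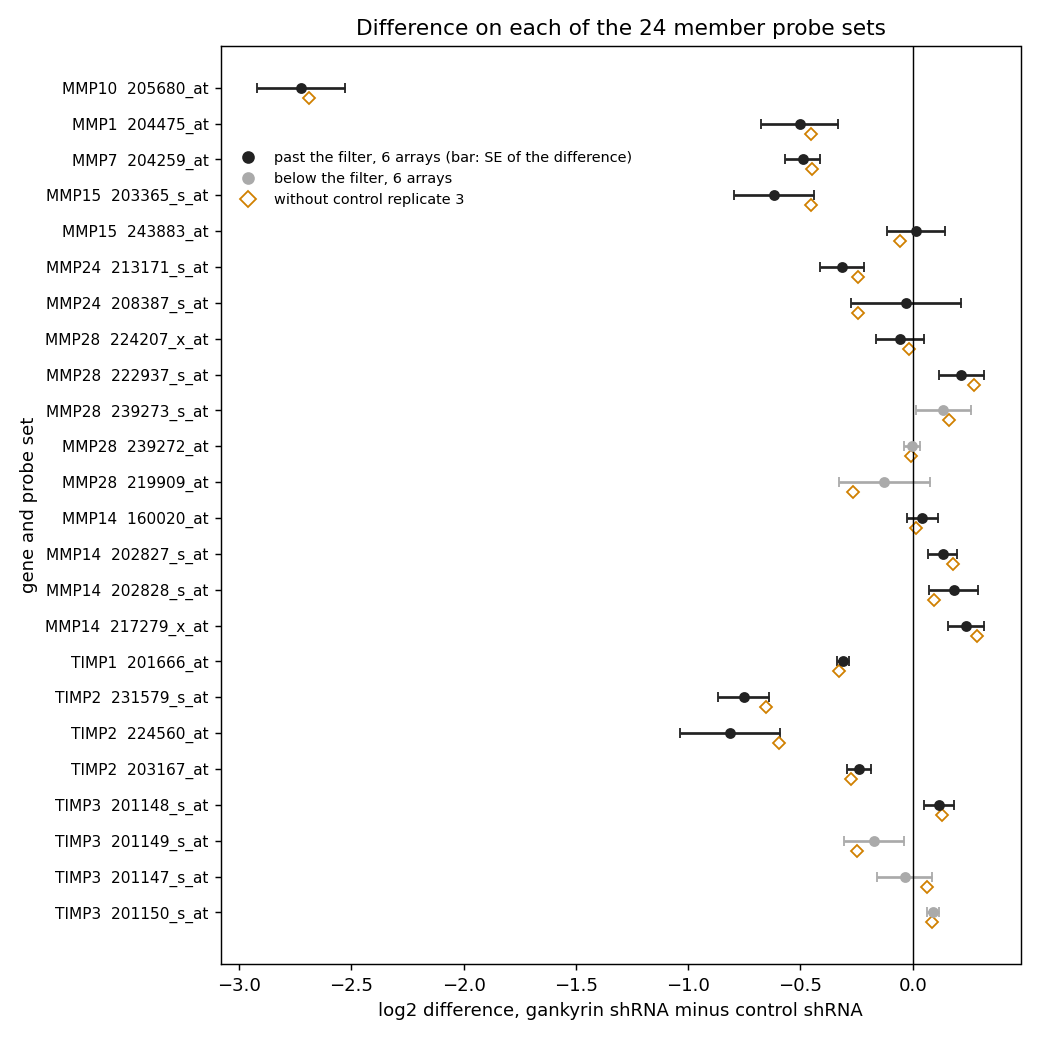
Log2 difference, gankyrin shRNA minus control shRNA (horizontal axis), on each of the 24 probe sets (vertical axis). Circles use all 6 arrays, black past the filter and grey below it, and bars are the SE of the difference computed from the SDs of both groups; open diamonds leave out control replicate 3. MMP10 stands at -2.72, the 3 TIMP2 probe sets at -0.24 to -0.81, and the second MMP15 probe set at 0.01.

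The genes whose profile lay closest to MMP10 were found by centring each gene's 6 log2 values on their mean and taking the Euclidean distance from MMP10 over the 6 arrays. The 5 nearest of 14199 genes were GULP1 (distance 0.28), AKAP12 (0.45), DHRS2 (0.50), ACOT4 (0.65) and PLTP (0.74). The ACOT4 knockdown mean of 3.96 lay under the low-end value of 4.28, and the PLTP knockdown mean of 4.42 lay just above it. GULP1, an engulfment adaptor, read 4.77, 5.35 and 5.05 on knockdown arrays, against 7.62, 7.88 and 7.75 on control arrays. Knockdown replicate 2 was the highest knockdown array for MMP10, GULP1, AKAP12, DHRS2 and PLTP, and knockdown replicate 3 for ACOT4. The distance takes in the difference between the groups, and it is a description with no test.

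None of the other family members tested passed, where 22.5% of all genes did in either direction. Of 17 other MMP and TIMP genes listed, 16 had single-gene probe sets, 7 passed the filter and 0 passed as lower or higher in limma. Nor did any have an unadjusted p under 0.05. Without control replicate 3 again 0 passed as lower and 0 as higher, against 16.6% and 12.7% of all genes. The 9 dim genes had probe set means of 1.88 to 3.13, among them MMP3. The gelatinases MMP2 and MMP9, which degrade denatured collagen and collagen IV, had log2 differences of 0.06 ± 0.10 and -0.19 ± 0.10 (SE). Neither passed (limma adjusted p = 0.723 and 0.228), and both averaged below the low-end value of 4.28 in either group. TIMP4, the brightest gene of this list, averaged 7.59 ± 0.09 in knockdown and 7.43 ± 0.02 in control arrays (SD, n = 3 each). Its difference of 0.16 ± 0.08 (SE) did not pass (adjusted p = 0.173).

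The related ADAM family, which includes membrane sheddases, was read with the same test. Of 11 genes 3 passed as lower and 0 as higher, against 14.3% and 8.13% of all genes, with a median log2 difference of -0.14. There were 4 and 0 without control replicate 3, against 16.6% and 12.7% of all genes. ADAM9, a sheddase of growth factors, averaged 9.99 ± 0.16 in knockdown and 10.83 ± 0.02 in control arrays (-0.83 ± 0.07 SE, limma adjusted p = 7.18e-05). ADAM19 was at -0.90 ± 0.11 (adjusted p = 0.000503) and ADAM8 at -0.78 ± 0.13 (adjusted p = 0.00274). A second ADAM8 probe set was at 0.06 and a second ADAM9 probe set at -0.43, and neither passed; with the probe sets of a gene averaged, ADAM9 did not pass (adjusted p = 0.0600). Of 19 ADAMTS genes listed 11 were tested and 0 passed in limma, where 22.5% of all genes passed in either direction. Among the 11, 1 had an unadjusted p under 0.05. That gene, ADAMTS6, the brightest of the list, was at 0.23 ± 0.10 (adjusted p = 0.134) and, without control replicate 3, at 0.31 (adjusted p = 0.0123).

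Plasmin, made from plasminogen at the cell surface, is a classical activator of proMMPs. Of 11 listed genes of plasminogen activation 8 were tested, of which 2 passed as lower and 2 as higher. All genes had 14.3% and 8.13%. Without control replicate 3 the counts were 3 and 2, against 16.6% and 12.7%. SERPINE2, protease nexin-1, which inhibits thrombin and plasminogen activators, read 7.29, 7.34 and 7.01 on knockdown arrays, against 8.63, 8.74 and 8.93 on control arrays. The groups were far apart and SERPINE2 fell by 1.55 ± 0.11 (log2 ± SE, 2.93-fold, adjusted p = 1.69e-05). PLAU, urokinase, averaged 4.15 ± 0.17 in knockdown and 4.80 ± 0.10 in control arrays (adjusted p = 0.00347), a dim signal in which the knockdown mean lay under the low-end value; its second probe set, at -0.33, did not pass. S100A10, which with annexin A2 holds plasminogen at the surface, averaged 12.89 ± 0.01 in knockdown and 12.51 ± 0.03 in control arrays (0.38 ± 0.03, adjusted p = 3.61e-05). PLGRKT, a plasminogen receptor, rose by 0.48 ± 0.12 (adjusted p = 0.0158), a call lost without knockdown replicate 1 or 3 or control replicate 2.

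Proprotein convertases cut the propeptide of membrane-type MMPs. Of 9 listed 6 were tested, and 1 passed as higher and 0 as lower, against 8.13% and 14.3% of all genes. The 1 was PCSK5, at 0.57 ± 0.16 (adjusted p = 0.0265), with control replicates 1 to 3 at 4.53, 4.48 and 5.08. That call was lost without knockdown replicate 1, 2 or 3 or control replicate 1 or 2. It was also lost on a probe set whose name has neither _x nor _s, at 0.30. In the fit over probe sets, a further PCSK5 probe set named with neither passed as higher, at 0.57. The probe set on which PCSK5 was read did not pass in that fit. Without control replicate 3 its difference was 0.77 ± 0.11. The convertase counts were then 0 lower and 1 higher, against 16.6% and 12.7% of all genes. The brightest, MBTPS1, was at 0.02 ± 0.06 (adjusted p = 0.832). Of 11 other MMP inhibitors and clearance receptors listed 5 were tested, and THBS1 (thrombospondin-1, which binds MMPs) alone passed, as higher, at 0.39 ± 0.11 (adjusted p = 0.0251). Among all genes 8.13% passed as higher. Without control replicate 3 this list had 0 lower and 2 higher, against 16.6% and 12.7% of all genes. The added call was SPOCK2, at 0.31 ± 0.11 (limma adjusted p = 0.0481). In the fit over probe sets the THBS1 probe set read here did not pass, while another did, at 0.40. The THBS1 call was lost without any single knockdown array or without control replicate 1 and with its probe sets averaged, and its 4 probe sets ranged from -0.24 to 0.40.

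CD9, CD63, ITGAV and CAV1 are among the surface proteins that bind, anchor or traffic MMPs and their inhibitors, and all were lower. Of 14 such genes tested, 7 passed as lower and 1 as higher, with a median of -0.23; all genes had 14.3% and 8.13%. There were 8 and 1 without control replicate 3, against 16.6% and 12.7% of all genes. The tetraspanin CD9, an organiser of membrane microdomains, fell by 0.79 ± 0.08 (adjusted p = 0.000122) and CD63, a tetraspanin that binds TIMP1, by 0.23 ± 0.04 (adjusted p = 0.00267). The integrin subunit ITGAV fell by 0.43 ± 0.06 (adjusted p = 0.001) and the caveolar protein CAV1 by 0.48 ± 0.10 (adjusted p = 0.00952), although a second CAV1 probe set was at -0.06 and did not pass. CD44, a hyaluronan receptor that can dock MMP7 and MMP9, was higher, at 0.21 ± 0.04 (adjusted p = 0.00807); 12 CD44 probe sets were past the filter, 5 passed, all higher, and 1 had a negative difference. The CD44 call was lost with no intensity trend, and that of CAV1 when its probe sets were averaged. The tetraspanin TSPAN12 did not pass on its brightest probe set, at 0.01. In the fit over probe sets another TSPAN12 probe set passed as higher, at 0.74, and a further one, at 0.61, did not pass. BSG, an inducer of MMPs in neighbouring cells, read 10.36, 10.35 and 10.01 on knockdown arrays, against 10.31, 10.21 and 9.04 on control arrays. The low value was control replicate 3; BSG was at 0.39 ± 0.27 with that array and at -0.02 ± 0.08 without it, and passed in neither case.

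AP-1 and ETS factors are the classical regulators of MMP promoters. Of 16 tested, 5 passed as lower and 1 as higher, against 14.3% and 8.13% of all genes, with a median of -0.20. Without control replicate 3 the counts were 6 and 2, against 16.6% and 12.7%. FOSL1, an AP-1 subunit, read 6.80, 6.87 and 6.91 on knockdown arrays, against 7.67, 7.80 and 8.01 on control arrays. All knockdown values were below all control values (-0.97 ± 0.10, adjusted p = 0.00015). FOSB was also lower, at -0.90 ± 0.13 (adjusted p = 0.00113), with a knockdown mean of 4.16 under the low-end value, and the ETS factor ELF3 was at -0.43 ± 0.08 (adjusted p = 0.00501). ATF3, a stress-induced bZIP factor, was higher, at 0.37 ± 0.07 (adjusted p = 0.00484). ATF3 did not pass as the mean of its probe sets, and neither ATF3 nor ELF3 passed on probe sets whose names have neither _x nor _s. ETS2, the brightest factor, was at -0.10 ± 0.05 and did not pass (adjusted p = 0.213). None of these values shows that the factors act on the MMP genes in these cells.

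Of 24 listed proteins that MMPs are known to cut, 15 were tested, of which 9 passed as lower and 0 as higher, against 14.3% and 8.13% of all genes, with a median of -0.36. Without control replicate 3 the count was 10 lower and 1 higher, against 16.6% and 12.7%. LAMB3, a chain of laminin-332, averaged 7.92 ± 0.06 in knockdown and 8.76 ± 0.22 in control arrays (-0.84 ± 0.10, adjusted p = 0.000527). CDH1, E-cadherin, which is also in the epithelial marker list, averaged 6.61 ± 0.03 in knockdown and 7.25 ± 0.12 in control arrays (-0.64 ± 0.09, adjusted p = 0.000863). The basement membrane collagen COL4A1 was at -1.14 ± 0.13 (adjusted p = 0.000303), with its knockdown mean of 3.87 under the low-end value. FN1, fibronectin, fell by 0.36 ± 0.05 (adjusted p = 0.000913) and on 4 of its 5 probe sets past the filter; the fifth was at 0.62 and did not pass, and with its probe sets averaged FN1 did not pass. Over the 9 related lists together, 93 genes other than the 10 were tested, of which 26 passed as lower and 6 as higher, against 14.3% and 8.13% of all genes. Their median was -0.09 and that of all genes -0.02.

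**Figure D3:**
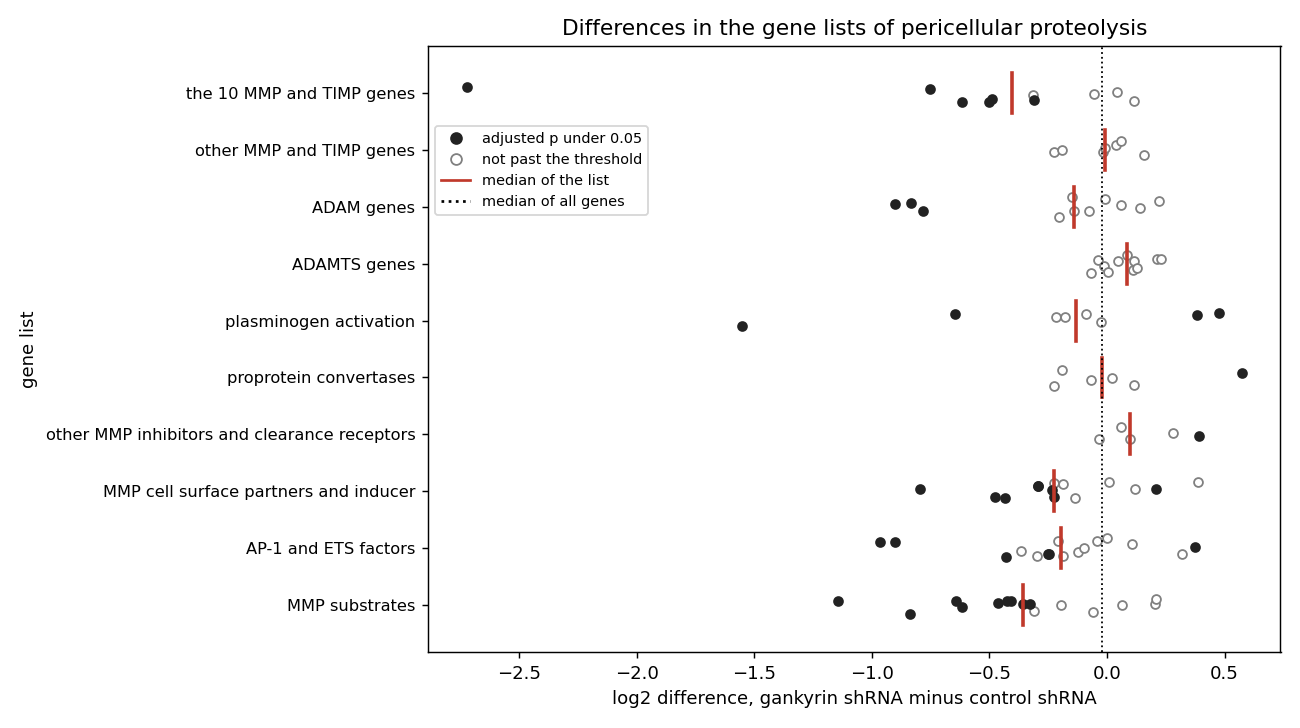
Log2 difference, gankyrin shRNA minus control shRNA (horizontal axis), of each tested gene in the 10 MMP and TIMP genes and in the 9 related lists (rows). Filled points had a limma adjusted p under 0.05, red ticks are list medians and the dotted line is the median of all genes, -0.02. The other MMP and TIMP genes hold no filled point, and the MMP substrates have a median of -0.36.

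The differences of the 10 genes were recomputed under 15 alternative settings of normalization, filter, variance model, probe set choice and left-out arrays. MMP10, MMP7, TIMP1 and TIMP2 passed as lower in 15 of 15. MMP10 ranged from -2.88 to -2.61, MMP7 from -0.56 to -0.45, TIMP1 from -0.33 to -0.29 and TIMP2 from -0.81 to -0.60. MMP1 and MMP15 passed in 12 of 15, MMP1 ranging from -0.64 to -0.41 and MMP15 from -0.73 to 0.01. MMP14, MMP28 and TIMP3 passed in 0 of 15.

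**Figure D4:**
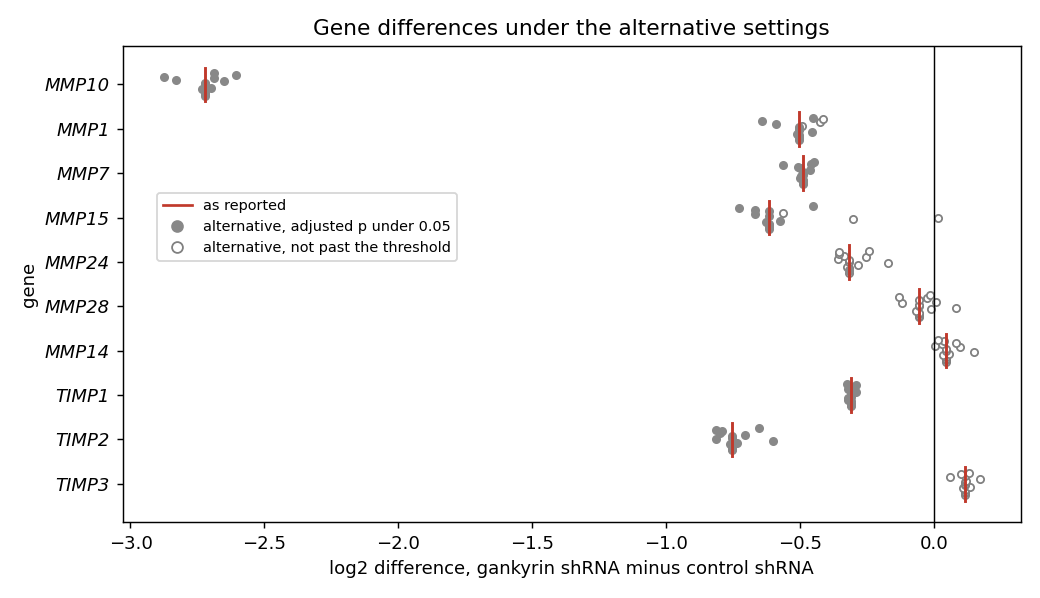
Log2 difference, gankyrin shRNA minus control shRNA (horizontal axis), of the 10 genes (vertical axis) as reported (red) and under 15 alternative settings (points, filled where the limma adjusted p was under 0.05). MMP10, MMP7, TIMP1 and TIMP2 have only filled points, and MMP15 reaches 0.01 when its second probe set represents it.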

How the data were processed

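Expression was read from 6 arrays hybridised with biotin-labelled cRNA by an Affymetrix protocol, per the labels, 3 per group, with groups and replicate numbers from the sample titles. The authors deposited one log2 signal per probe set and array; the base is read from the range, 1.29 to 13.68, and near-equal array medians show a common scale whose method is not given in the sources used here. MAS5 is named per the submitters' processing notes, without its role or version. No detection calls were used, and for arrays the number of replicates limits the precision.

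Of 54675 probe sets, 62 controls and the lowest 40% of the others by mean over all 6 arrays were left out (limit 3.60), leaving 32759. Probe sets with 1 gene (41091) were named through the platform annotation and the RefSeq table of GRCh38.p14, in which 19735 genes matched and 42 kept an older symbol. Each gene was read on its brightest probe set (14199 genes), and the probe sets were also fitted singly. The comparison of groups used limma's lmFit and eBayes (version 3.58.1, under R 4.3.3) with an intensity trend. Two-sided p-values were adjusted by Benjamini and Hochberg's method across the whole table, with a threshold of 0.05; "rose", "fell" and "passed" refer to it. The pipeline was tested on simulated data. Promoter sequences are from RefSeq, GRCh38.p14.

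The members, gene lists, alternatives and naming rule were chosen with earlier results of these data known. Named were PSMD10, NFIL3, the members, up to 3 called genes of largest change per direction and the brightest gene of each related list, and the 5 genes nearest MMP10. MMP2, MMP9, BSG, TSPAN12 and the marker genes were added after their values were seen.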

Additional observations from a re-analysis of the deposited data

How the results depend on the processing

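For single named genes, 604 comparisons with an alternative kept the direction and the side of the threshold, 31 lost and 3 gained a call, and 4 changed sign. The sign changes were MMP15 at 0.0133 with probe sets not ending in _x_at or _s_at, MMP28 at 0.08 and ETS2 at 0.00889 with probe sets averaged, and MMP28 at 0.00833 without knockdown replicate 2 (-0.13 to 0.00833 with 1 array left out); none of the 4 passed and the cause was not tested. With 1 array left out, all genes called ranged from 1732 to 4161 against 3189 (1734, 1743 and 1732 without knockdown replicates 1, 2 and 3, and 3089, 2541 and 4161 without control replicates 1, 2 and 3; the cause was not tested), the 10 genes from 5 to 6, their probe sets from 3 (without knockdown replicate 1) to 8 against 6, and related genes from 23 to 41 against 32. The labels do not say whether equal replicate numbers pair the arrays. Same-numbered deviations correlated at 0.02, 0.11 and -0.01, and not every array correlated best with its own number. Such correlations cannot decide whether the arrays were paired, and the main fit did not pair them. With a replicate block 3049 genes passed, with 6 of the 10 genes and 5 of their probe sets. Of the 5 probe sets of MMP28 2 were past the filter, and of the 4 of TIMP3 1 was. The MMP14 probe set 217279_x_at averaged 4.08, under the low-end value of 4.28. The probe sets on which MMP14, MMP28 and TIMP3 were read averaged 5.07, 6.27 and 5.16, above that value.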

Other observations

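MMP24 has a neighbour named MMP24OS, a transcript of the opposite strand, which was looked at after the values were seen. All 4 of its probe sets had lower means in knockdown arrays, with log2 differences of -0.10, -0.13, -0.17 and -0.24, and on the first 2 of these the groups overlapped. The brightest read 8.54, 8.47 and 8.45 on knockdown arrays, against 8.74, 8.70 and 8.74 on control arrays. The brightest passed in the fit over genes (limma adjusted p = 0.0196) and in the fit over probe sets (adjusted p = 0.0433). The other 3 did not pass (adjusted p = 0.458, 0.360 and 0.148 in the fit over probe sets), and neither did MMP24 itself.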
